A study of Mus musculus with 11 samples.

Results

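CD11b+/SiglecF+ immature alveolar macrophages (ImmAMs) sorted from Cd11cCre+ Rxrab fl/fl mice were compared across the transcriptome with CD11b-/SiglecF+ mature alveolar macrophages (mAMs) of Rxrab fl/fl littermates. The comparison takes 7 of the 11 RNA-seq libraries in the series, 3 of ImmAMs (replicates 2 to 4) and 4 of control mAMs (replicates 1 to 4), and 12889 of the 12932 genes in the deposited table. The mice were C57BL/6J, of both sexes and 9 weeks old, and both groups carry the loxP-flanked alleles of Rxra and Rxrb. Only the ImmAM donors carry Cre, which is driven by the Cd11c (Itgax) promoter and is therefore also active in other CD11c+ cells. The labels call every library lung alveolar macrophages. No ImmAM library without Cre was analysed here, so the sort gate and the genotype cannot be told apart in this comparison. A further 3 libraries of Cd11cCre+ Rxrab fl/fl mAMs (replicates 1 to 3, RXR-deficient mAMs) share the genotype of the ImmAMs and the gate of the controls. They entered the same fit and are given as levels beside the results.

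Alveolar macrophages are the resident phagocytes of the airspace. They arise from fetal monocytes that mature after birth under GM-CSF and TGF-β, take up and degrade surfactant lipid, and renew themselves by division. RXRα and RXRβ are nuclear receptors that bind DNA as the common partner of PPARγ, the liver X receptors and the retinoic acid receptors, which control genes of lipid uptake, storage, oxidation and efflux. CD11b is carried by monocytes and by macrophages newly derived from them, and SiglecF marks resident alveolar macrophages.

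Values are CPM (read counts scaled by library size), and folds are ratios of geometric means from log2 of the deposited values. Reads per library were 16659960 to 21335567 in ImmAMs, 19927934 to 37873532 in control mAMs and 17964528 to 23545727 in RXR-deficient mAMs. Pearson correlations of log2 CPM over all genes were 0.959 to 0.965 between ImmAM libraries, 0.958 to 0.972 between control libraries and 0.859 to 0.878 between the groups. Genes of the label and gate moved as follows. Itgam, which encodes CD11b, was at 168, 174 and 168 CPM in the ImmAM libraries and at 3.58, 3.52, 3.55 and 3.85 CPM in the control libraries (65.9% of its 60-base transcript windows also occur in another annotated gene). Siglecf was at 19.3, 19.7 and 19.7 CPM against 264, 263, 244 and 256 CPM, so the transcript of the second gate marker was lower in every ImmAM library (13.1-fold, limma p-adj = 2.07e-12). Itgax, whose promoter drives Cre, was at 1401 to 1453 CPM against 1519.5 to 1687 CPM (log2 fold change −0.19 with SE 0.0699, limma p-adj 0.0389), a call that was lost in 11 alternatives. Every library held reads of both Xist (302 to 345 CPM in ImmAMs, 119 to 539 CPM in controls) and Ddx3y (64.5 to 69.3 CPM against 39.7 to 100.4 CPM), so transcripts of both sexes were present in each. The study counts each library as a mouse. Whether a library holds RNA of more than 1 mouse was not tested, and n below counts libraries.

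The targeted genes were still read in the ImmAM libraries. Rxra (chromosome 2, 27676440 to 27762957, GRCm38) was at 286, 305 and 283 CPM in ImmAMs, against 310.2, 352, 336 and 379.5 CPM in control mAMs. The groups did not overlap, but the difference was small (log2 fold change −0.24 with SE 0.0708, limma p-adj 0.0141) and its call was lost after quantile normalization and without ImmAM replicate 2 or 4. Rxrb (chromosome 17, 34031812 to 34038399) was at 33.4, 35.2 and 31.9 CPM against 54.0, 61.5, 51.4 and 72.1 CPM (log2 fold change −0.82 with SE 0.124, limma p-adj 0.000126). The two-sided exact permutation test over the 7 libraries gave p = 0.0571 for Rxra and p = 0.0286 for Rxrb, the smallest value that its 35 splits allow. The table holds 1 value per gene, so reads from exons that were not deleted are part of these levels, and they measure neither the share of recombined alleles nor the protein.

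Limma called 6194 of the 12889 genes changed (48.1%), 2937 of them higher in ImmAMs (22.8%) and 3257 lower (25.3%), at a threshold of 0.05 on p-adj. Rises were larger than falls over all called genes. The median log2 fold change was 0.762 over the genes called higher and −0.579 over those called lower, 1102 genes rose and 957 fell by at least 2-fold, and 65 rose and 4 fell by at least 64-fold. The order turned with the mean level of the gene over the 10 libraries of the fit. Below a mean of 2 CPM, 11.7% of genes rose and 6.55% fell by at least 4-fold, whereas at 200 CPM or more 1.16% rose and 2.75% fell by as much. Only 3 of those libraries were of ImmAMs. A gene high in ImmAMs alone therefore has a lower mean than one equally high in mAMs alone, so this turn is partly built in. The libraries of the 2 groups did not overlap for 6614 genes (51.3%), and 5799 genes (45.0%) were both called and without overlap. Genes called higher held 25% to 26% of all CPM in the control libraries and 40.5% to 41.3% in the ImmAM libraries, while genes called lower held 41.0% to 42.2% and 25.6% to 26.4%. In RXR-deficient mAMs these shares were 27.0% to 29.7% and 36.9% to 39.5%, each library between the other groups. The genes were called between ImmAMs and controls on these same values. The gap between those groups, and the place of other libraries between them, are therefore partly built in. Because RNA was measured relative to a library total, a gene that fell as a share of the library and a gene that fell per cell cannot be told apart.

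**Figure D1:**
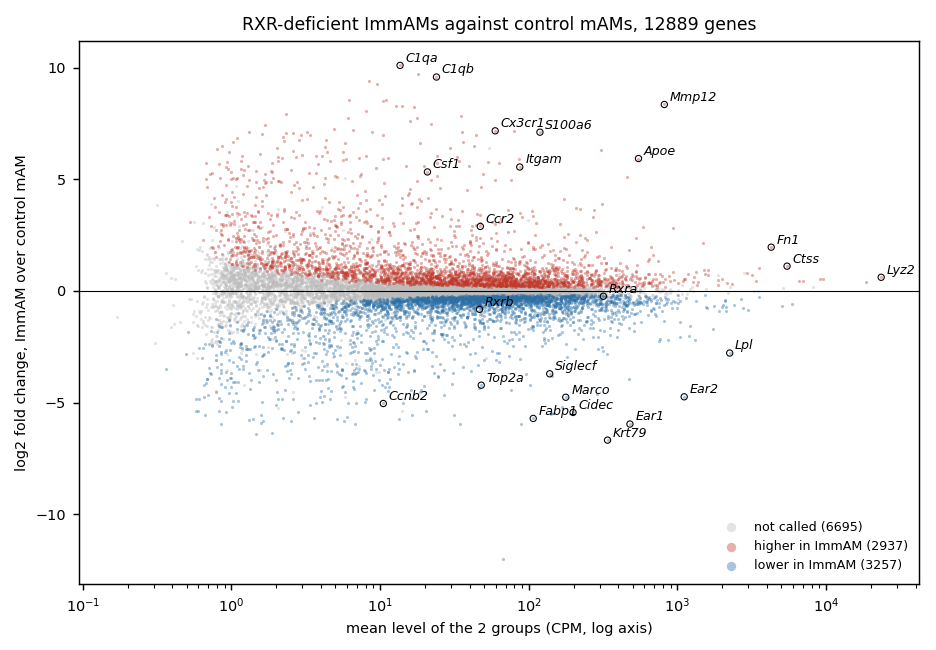
Log2 fold change of each of the 12889 tested genes in RXR-deficient ImmAMs over control mAMs (vertical axis) against the mean CPM of the 2 groups (log horizontal axis), with genes called higher in red, called lower in blue and not called in grey. Of these, 2937 genes were called higher and 3257 lower, and the circled points are named genes, with C1qa at 10.11 and Krt79 at −6.68.

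**Figure D2:**
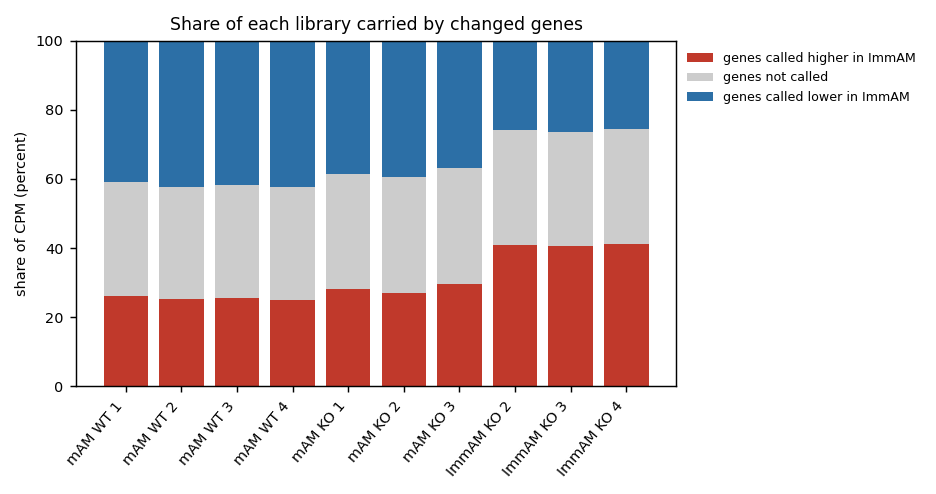
Share of CPM in each library (percent, stacked to 100) held by genes called higher in ImmAMs, genes not called and genes called lower. The red share was 40.5% to 41.3% in the ImmAM libraries and at most 26.0% in the control libraries.

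Most genes of alveolar macrophage identity were lower in ImmAMs. Of 39 tested markers of this cell, 25 were lower in ImmAMs and 8 higher (64.1% and 20.5%), against 25.3% and 22.8% of all genes. These shares of all genes are the background for the counts of every list below. The median log2 fold change was −0.95 over the markers against −0.00254 over all genes. Krt79, a type II keratin used as a marker of these cells (chromosome 15, 101929332 to 101940324), was at 6.65, 5.96 and 7.01 CPM in ImmAMs and at 594, 759, 648 and 683 CPM in control mAMs, with no overlap. It fell 102-fold (log2 fold change −6.68 with SE 0.289, limma p-adj 1.55e-09), the largest fall of a called gene at 20 CPM or more after that of the pseudogene Rpl10-ps1. The eosinophil-associated ribonucleases fell likewise, Ear1 from 943 ± 69.3 CPM in controls (SD, n = 4) to 15.1 ± 0.803 CPM in ImmAMs (SD, n = 3) and Ear2 from 2140.1 ± 165 to 80.0 ± 5.04 CPM. Their transcripts are alike, and 49.1% of the 60-base windows of Ear1 and 32.7% of those of Ear2 occur in another gene, so how reads were divided between them is uncertain. Marco, a scavenger receptor for particles and bacteria, was at 13, 13.8 and 10.9 CPM against 316, 377, 363 and 310 CPM (27.1-fold lower, limma p-adj = 2.07e-12).

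Fatty acid binding and storage genes were among the deepest losses of the identity list. Fabp1, a fatty acid binding protein, was at 2.95, 4.80 and 4.39 CPM against 176, 256, 189 and 219 CPM (52.5-fold lower), and Cidec, which enlarges lipid droplets, at 7.90, 9.53 and 9.43 CPM against 358, 419, 376 and 399 CPM (43.5-fold lower). Cpne5, a calcium-dependent phospholipid-binding protein, fell 45.6-fold, from 278 ± 17.1 to 6.10 ± 0.563 CPM. Lpl, lipoprotein lipase, had the greatest loss in CPM of any gene named by the rule, from 3929.5 ± 821 to 564 ± 19.6 CPM (log2 fold change −2.78 with SE 0.128, limma p-adj 2.75e-09). Not every marker moved with them. Pparg, the nuclear receptor that specifies these cells, was at 219, 218 and 215 CPM in ImmAMs and at 201, 196, 219.7 and 174 CPM in control mAMs, where the groups overlapped and no call was made (limma p-adj = 0.129). Chil3, a chitinase-like lectin of these cells, rose from 16163 ± 2306 to 21175 ± 843 CPM (limma p-adj = 0.0273, lost in 6 alternatives), Ctsk, a cysteine protease, rose 3.87-fold from 275 ± 23.9 to 1059.8 ± 1.07 CPM, and Gpr137b, a lysosomal membrane protein, and Dst, a cytoskeletal linker, rose by 0.62 and 0.40 on the log2 scale.

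**Figure D3:**
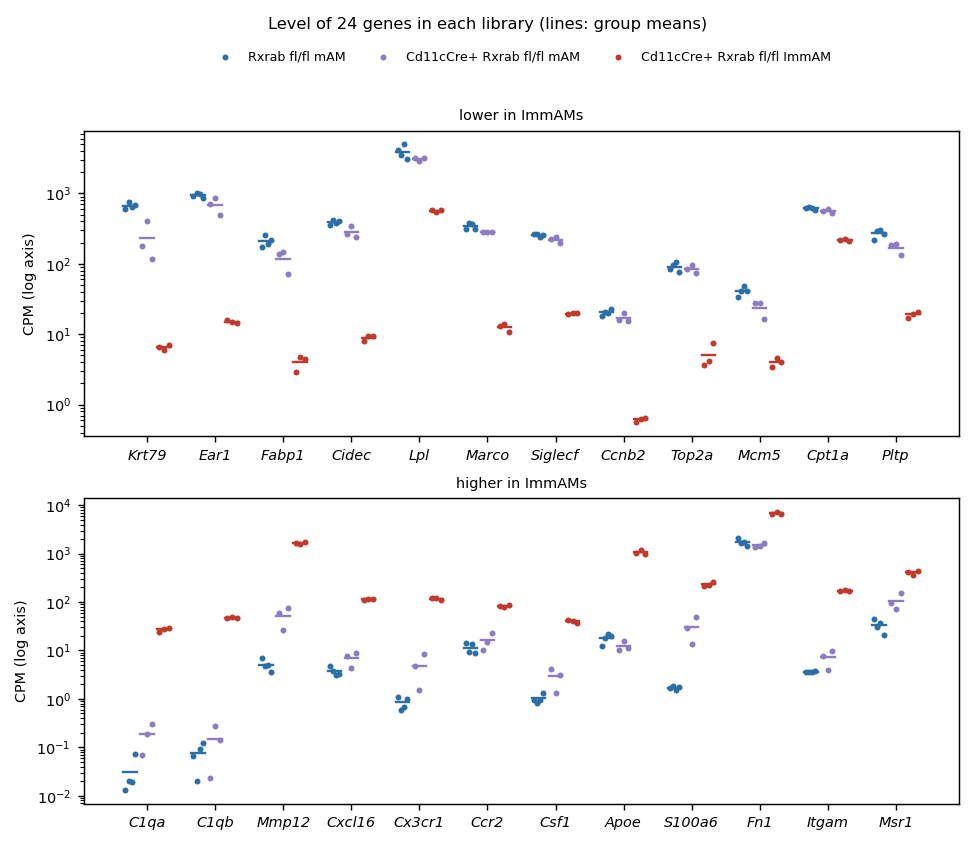
CPM (log axis) of 12 genes lower and 12 genes higher in ImmAMs, 1 point per library and a line at each group mean, for control mAMs in blue, RXR-deficient mAMs in purple and RXR-deficient ImmAMs in red. The ImmAM points lie apart from the control points for all 24 genes, for instance Krt79 at 5.96 to 7.01 CPM against 594 to 759 CPM and Mmp12 at 1547 to 1707 CPM against 3.51 to 6.93 CPM.

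The losses extended over lipid use. Among genes of fatty acid oxidation, 35 of 55 fell and 5 rose (median log2 fold change −0.62). Cpt1a, the carnitine palmitoyltransferase that admits long-chain fatty acids to mitochondria, was at 215, 227 and 212 CPM against 610.3, 642, 622 and 581 CPM (2.81-fold lower). Acaa1b, a peroxisomal thiolase, fell 43.6-fold from 279.7 ± 23.8 to 6.40 ± 0.182 CPM, Pdk4, the kinase that restrains pyruvate entry during fat use, fell 19.5-fold from 20.5 ± 2.78 to 1.06 ± 0.215 CPM, and Pex11a, which divides peroxisomes, fell 5.46-fold. The mitochondrial carriers Ucp3 and Ucp2 fell 6.86-fold and 1.54-fold. The 5 members that rose were Acsl3, Acsl4, Acot1, Pex5 and Echs1, and of these Acsl3, a fatty acyl-CoA ligase, changed most, from 1.64 ± 0.376 to 5.35 ± 1.31 CPM.

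Triglyceride storage followed the same direction, with 19 of 32 genes of lipid droplets and triglyceride turnover lower and 4 higher (median −0.56). Plin1, a lipid droplet coat protein, was at 0.209, 0.209 and 0.289 CPM in ImmAMs and 9.21, 12, 14.8 and 10.9 CPM in control mAMs. Plin2, the coat protein of macrophage droplets, fell 2.64-fold from 1509 ± 105 to 571 ± 17.3 CPM, and Fabp4 fell 5.48-fold. Gpd1, the glycerol-3-phosphate dehydrogenase of the glycerolipid route, was at 0.626, 1.37 and 1.55 CPM against 55.7, 66.8, 75.8 and 74.2 CPM (61.6-fold lower), and Pnpla5, a lipid droplet hydrolase, fell 52.9-fold. Lipe, hormone-sensitive lipase, and Agpat2, an acyltransferase of phosphatidic acid synthesis, rose 1.92-fold and 1.79-fold.

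Mitochondrial genes split by where they are encoded. All but 2 of the 27 genes of the TCA cycle fell and none rose (25 lower, median −0.38), and of the nuclear genes of the respiratory chain 36 of 76 fell and 2 rose (median −0.22). Me2, a mitochondrial malic enzyme, was at 29.7, 34.0 and 32.8 CPM against 138, 142, 151 and 130.2 CPM (4.36-fold lower), Mdh2, malate dehydrogenase, fell 1.54-fold, and Cox5a, a subunit of cytochrome oxidase, fell 1.95-fold from 125 ± 7.89 to 63.9 ± 4.25 CPM. In the opposite direction, 9 of the 13 mitochondrially encoded genes of the respiratory chain rose and none fell (median 0.80). Of these, mt-Cytb, cytochrome b, was at 4906, 4340.3 and 5109 CPM against 2705, 2286, 2468 and 1863 CPM (2.07-fold higher, limma p-adj = 9.56e-06). The rise of mt-Co1, 1.47-fold, was lost after quantile normalization, and 46.5% of its windows occur in other annotated genes. The ribosomes split in a like way. Of 78 cytosolic ribosomal protein genes, 72 rose and none fell (median 0.53), whereas of 77 mitochondrial ribosomal protein genes 35 fell and 1 rose (median −0.29). Rplp0, of the large cytosolic subunit, was at 1246, 1338 and 1327 CPM against 884, 929, 864 and 969 CPM. Rpl13 rose 2.14-fold, but its control libraries were spread, at 217, 319, 235 and 402 CPM. Of the windows of Rplp0 and Rpl13, 28.0% and 23.2% occur in another gene, so how their reads were divided is uncertain. Mrps6, of the small mitochondrial subunit, fell 2.64-fold from 31.8 ± 2.91 to 12 ± 0.886 CPM.

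The division programme was the most uniform loss. Over 85 tested genes of mitosis the median log2 fold change was −3.26. Of them 84 were lower in ImmAMs (98.8%, against 25.3% of all genes), 83 with no overlap between groups. The exception was Pttg1, securin, at 0.28. Ccnb2 and Ccnb1, cyclins that drive entry into mitosis, were at 0.566, 0.626 and 0.656 CPM and at 0.507, 0.904 and 0.341 CPM in ImmAMs, against 18.2 to 22.6 CPM and 13.8 to 18.8 CPM in control mAMs. The falls were 33.0-fold and 28.5-fold. Top2a, the topoisomerase that untangles chromosomes, was at 3.61, 4.11 and 7.54 CPM against 84.4, 95, 107 and 76.4 CPM (18.7-fold lower, limma p-adj = 5.15e-09). Cenpf, a kinetochore protein, fell 19.4-fold, and Kif23, the kinesin of the cytokinetic bridge, fell 14.1-fold. RXR-deficient mAMs were close to the controls in these genes, with Top2a at 84.5, 96.0 and 73.3 CPM and Ccnb2 at 15.7, 20 and 15.4 CPM, and their median log2 fold change against them, ImmAMs over RXR-deficient mAMs, was −3.26 as well.

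DNA replication genes fell less far. Of 62, 49 were lower and 1 higher (median −1.06). Mcm5, of the replicative helicase, was at 3.43, 4.52 and 4.02 CPM against 33.3, 41.0, 48.2 and 41.5 CPM (10.3-fold lower), Mcm6 and Mcm3 of the same helicase fell 4.43-fold and 2.57-fold, and Rrm2, the ribonucleotide reductase subunit, fell 21.6-fold from 36.1 ± 3.67 to 1.71 ± 0.426 CPM. Pcna, the sliding clamp, which also serves repair, fell 1.77-fold only, from 168 ± 13.3 to 94.5 ± 6.78 CPM. Donson, a replication fork protein, was the member that rose, from 15.1 ± 1.35 to 22.3 ± 2.15 CPM. In the repair list, 38 of 81 genes fell and 6 rose (median −0.33). Brca1, of homologous recombination, was 13-fold lower at 0.673 to 1.16 CPM, while Ercc6 and Xpc of excision repair and Parp1, a sensor of strand breaks, rose 2.21-fold, 1.42-fold and 1.32-fold.

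Among 48 regulators of the cell cycle, 24 fell and 10 rose (median −0.30). The repressors E2f7 and E2f8 fell 11.4-fold and 12.3-fold, Ccne2, a cyclin of S-phase entry, fell 5.10-fold, and Pkmyt1, an inhibitory kinase of CDK1, fell 8.30-fold. The members that rose included inhibitors of cyclin-dependent kinases. Cdkn2a was at 7.12, 6.80 and 7.38 CPM against 0.409, 0.744, 0.769 and 0.663 CPM (11.3-fold higher), Cdkn1a, which encodes p21, was at 161, 169 and 156 CPM against 86.4, 96.6, 84.5 and 97.6 CPM (1.78-fold higher), and Cdkn2d rose 1.94-fold. Ccnd1, a cyclin of early G1, also rose, 8.29-fold to 14.5 ± 1.69 CPM.

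The promoters of these genes show letters that the rule did not use. They were searched in RefSeq promoters of the GRCm38.p6 build, from 250 bases before to 50 bases after the start, on both strands, for the cell cycle genes homology region (CHR, TTTGAA), the E2F site (TTTNNCGC) and the box bound by NF-Y (CCAAT). The letters of these motifs do not contain each other. RefSeq gave 81 promoters for 73 of the 85 mitosis genes, 65 promoters for 52 of the 62 replication genes and 11966 promoters for 9428 of all tested genes. Of the mitosis promoters 64.2% held the CHR letters, against 12.5% of all promoters and 15.4% for DNA replication. The next highest shares among the lists were 34.4% for lectins and scavenger receptors, 28.0% for TREM2-type genes and 25% for apoptosis. The E2F letters were in 36.9% of the DNA replication promoters, 18.5% of the mitosis promoters and 8.25% of all. The CCAAT box was in 70.4% of the mitosis promoters and 38.4% of all, but also in 80.0% for cholesterol synthesis, 72.7% for MHC class I and 67.7% for the TCA cycle. In the 250 bases before the start alone, the CHR was in 37.0% of the mitosis promoters and 31.2% of those of lectins and scavenger receptors, against 11.1% of all, and the E2F letters were in 24.6% of the replication promoters against 6.91%. Below are 150 bases, from 100 before to 50 after the start, for 4 mitosis genes that hold the CHR and the CCAAT box, shown because their capitals stand together near the start, and then for 2 helicase genes that hold the E2F letters. All lie on the minus strand. Capitals mark CHR or E2F letters and the CCAAT box, on either strand, at chr9:70421505-70421654 (Ccnb2), chr1:189688037-189688186 (Cenpf), chr11:99024140-99024289 (Top2a), chr9:61946750-61946899 (Kif23), chr1:128359656-128359805 (Mcm6) and chr1:20820263-20820412 (Mcm3).
Ccnb2: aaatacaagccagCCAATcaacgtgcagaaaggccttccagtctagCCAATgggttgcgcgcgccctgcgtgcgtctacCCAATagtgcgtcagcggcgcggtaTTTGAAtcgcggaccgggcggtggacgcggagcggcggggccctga
Cenpf: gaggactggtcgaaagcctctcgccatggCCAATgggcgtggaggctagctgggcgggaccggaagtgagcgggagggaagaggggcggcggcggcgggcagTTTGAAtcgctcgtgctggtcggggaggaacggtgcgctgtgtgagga
Top2a: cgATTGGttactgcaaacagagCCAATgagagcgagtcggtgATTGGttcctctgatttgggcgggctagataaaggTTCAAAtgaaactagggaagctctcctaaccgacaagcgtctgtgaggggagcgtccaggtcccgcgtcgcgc
Kif23: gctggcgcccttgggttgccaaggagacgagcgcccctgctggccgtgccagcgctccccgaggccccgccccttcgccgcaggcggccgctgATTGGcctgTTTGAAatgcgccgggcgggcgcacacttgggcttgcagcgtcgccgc
Mcm6: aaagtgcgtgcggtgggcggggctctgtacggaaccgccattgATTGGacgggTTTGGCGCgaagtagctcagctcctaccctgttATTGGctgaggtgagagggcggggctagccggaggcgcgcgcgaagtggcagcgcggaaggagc
Mcm3: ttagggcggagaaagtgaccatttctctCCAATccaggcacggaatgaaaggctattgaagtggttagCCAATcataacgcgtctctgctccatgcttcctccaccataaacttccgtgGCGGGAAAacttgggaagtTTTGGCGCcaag
In Ccnb2 the CHR stands downstream of 3 CCAAT boxes, and Top2a holds the CHR on the opposite strand. A match of letters is a description of the promoter and does not show that a factor was bound there.

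C1qa of the complement system had the largest rise of any gene tested, while the complement genes moved in both directions. Of 18 tested, 10 rose and 6 fell (median 0.73, against 0.60 with a pseudocount of 0.5 and 0.21 with a filter of 5 CPM), and their summed level was lower in ImmAMs, at 3136 to 3220.2 CPM against 3599 to 3953 CPM. The 3 chains of C1q, the recognition protein of the classical pathway, lie side by side on chromosome 4 between 136880129 and 136898803. C1qa was at 24.5, 27.3 and 29.8 CPM in ImmAMs, and in control mAMs 3 libraries had 0 reads and the fourth had 1. C1qb was at 45.8, 49.7 and 48.0 CPM and C1qc at 14.7, 21.6 and 20.7 CPM, against 6 and 3 reads over the 4 control libraries together. The ratio of reads per depth was 2995 for C1qa (95% exact interval 537 to 118361) and 704 for C1qc (240.4 to 3421), where the intervals cover counting error only. RXR-deficient mAMs had C1qa at 0.0692, 0.191 and 0.305 CPM, so all chains were far lower in mAMs of either genotype than in ImmAMs. C3ar1, the receptor for the C3a fragment, rose 139-fold to 70.9 ± 4.16 CPM. The C5a receptors fell, C5ar1 2.89-fold and C5ar2 1.72-fold, as did C3, the central component, at 231, 235 and 195 CPM against 455, 385, 329.6 and 395 CPM.

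Most receptors for chemoattractants rose, and the formyl peptide receptors fell. Of 21, 14 rose and 4 fell (median 0.89). Cx3cr1, the fractalkine receptor of monocytes and interstitial macrophages, was at 120.3, 124 and 110.2 CPM against 1.10, 0.583, 0.694 and 1.01 CPM (144-fold higher, limma p-adj = 3.32e-08). Ccr2, the receptor that brings monocytes out of the marrow, was at 83.7, 79.0 and 86.4 CPM against 14, 9.23, 13.5 and 8.91 CPM (7.42-fold higher). Cmklr1, the chemerin receptor, was at 15.6, 19.7 and 15.4 CPM, with 1 read over the control libraries (ratio 1872, 95% exact interval 335 to 74023). Fpr1, a formyl peptide receptor, was at 56.9, 57.1 and 58.9 CPM against 369, 353, 337 and 339 CPM, and Fpr2 was 5.48-fold lower.

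Of 37 chemokine ligands and cytokines, 21 rose and 8 fell (median 1.04). Csf1, the growth factor of macrophages, was at 43.2, 41.4 and 37.3 CPM against 0.964, 0.824, 0.957 and 1.35 CPM (40.3-fold higher), and its receptor Csf1r rose 2.52-fold from 420.3 ± 34.8 to 1056 ± 46.3 CPM. Cxcl16, a membrane-bound chemokine that also takes up oxidized lipid, rose 31.1-fold from 3.72 ± 0.753 to 114 ± 2.77 CPM. Pdgfb, a growth factor for mesenchymal cells, rose 8.72-fold, and Il1b rose 4.55-fold to 48.4 ± 1.54 CPM. Among the falls were Cx3cl1, the ligand of CX3CR1, at 7.60, 6.05 and 5.23 CPM against 64.6, 69.1, 64.1 and 65.7 CPM, Il18 (4.32-fold lower) and Il1rn, the antagonist of interleukin 1 (2.02-fold lower).

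Genes that cut, bind or build matrix rose in 16 of 29 cases and fell in 6 (median 0.93, or 0.61 without control mAM replicate 3). Mmp12, macrophage elastase (chromosome 9, 7344381 to 7369499), was at 1627, 1547 and 1707 CPM against 6.93, 4.89, 5.12 and 3.51 CPM (327-fold higher, limma p-adj = 2.48e-10), and at 58.1, 26.1 and 74.2 CPM in RXR-deficient mAMs, between the other groups. Mmp14, a membrane-bound metalloprotease, rose 64.6-fold to 65.1 ± 8.61 CPM, and Ecm1, a secreted matrix protein, rose 79.0-fold to 601 ± 22.5 CPM. Fn1, fibronectin, had among the largest gains in CPM, at 6689, 7168 and 6512 CPM against 2142, 1698, 1706 and 1474 CPM. Matn2, a matrix adaptor, fell 13.4-fold. Integrins rose in 10 of 15 cases and fell in 4 (66.7% and 26.7%, median 0.46), against 22.8% and 25.3% of all genes. Among integrin genes, Itgam encodes the gate marker CD11b, so its rise was partly set by the sort. Itgb7 was 48.0-fold and Itga4 3.60-fold higher, and Itgad was 27.5-fold lower.

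**Figure D4:**
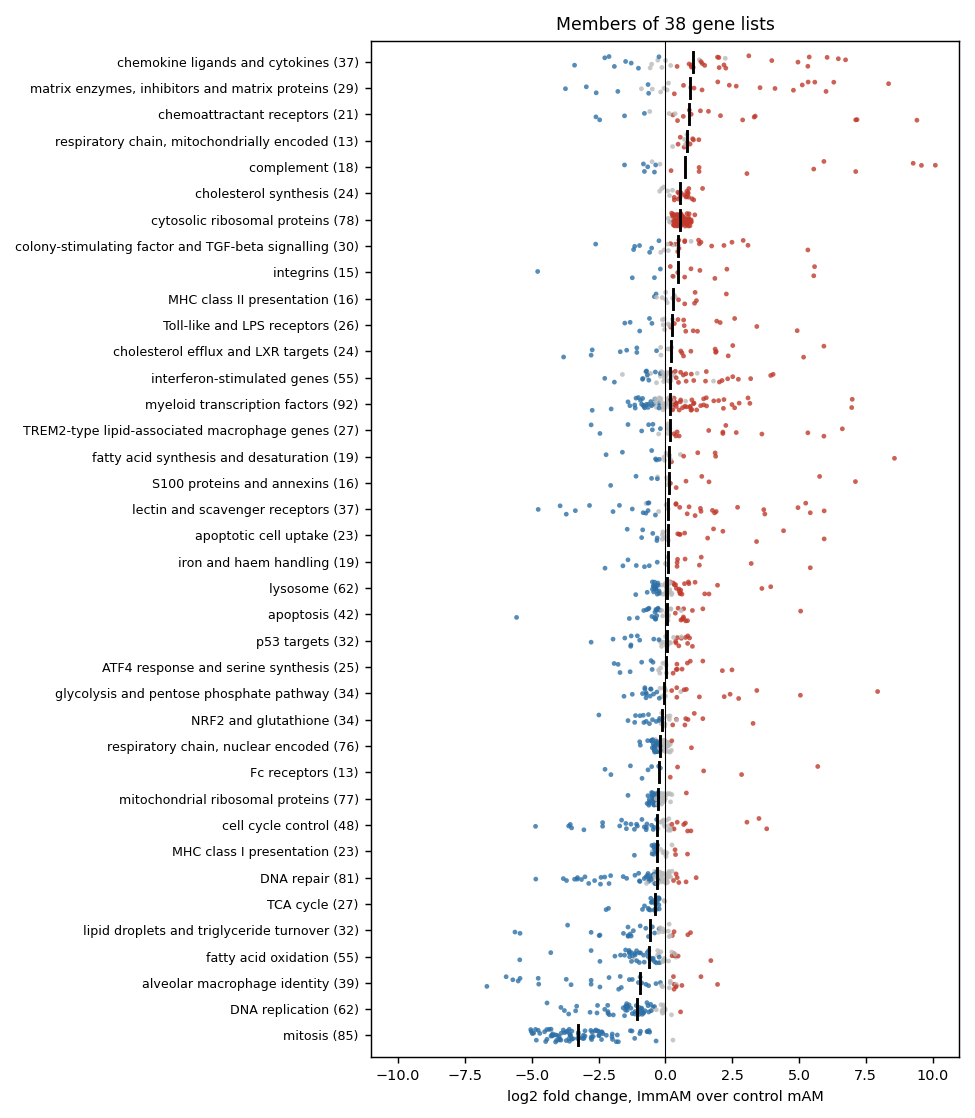
Log2 fold change of every tested member of 38 gene lists in ImmAMs over control mAMs (points, red for called higher, blue for called lower, grey for not called), with a black bar at each list's median and the number of members in parentheses. Mitosis lies lowest with a median of −3.26, and chemokine ligands and cytokines highest with 1.04.

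Transcription factors of myeloid cells moved in both directions, 41 of 92 higher and 24 lower (median 0.19). These were 44.6% and 26.1%, against 22.8% and 25.3% of all genes, so the share that fell was near that of all genes. Rarb, a retinoic acid receptor and partner of RXR, was at 6.41, 6.70 and 7.06 CPM and below 0.2 CPM in every control library, while Rara, another receptor of retinoic acid, fell 2.52-fold from 191 ± 24.8 to 75.4 ± 5.31 CPM. Irf4 rose 8.96-fold and Bach2 6.76-fold. Nr1h3, which encodes the liver X receptor LXRα, was at 4.86, 6.70 and 6.12 CPM against 39.5, 41.4, 33.3 and 42.4 CPM (6.67-fold lower), Egr2 fell 2.64-fold, and Cebpb fell 1.85-fold between spread control libraries at 553, 939, 486 and 987 CPM.

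In growth factor and TGF-β signalling, 16 of 30 genes rose and 7 fell (median 0.48). Csf2rb, the shared chain of the GM-CSF receptor, was at 906 to 983 CPM against 922 to 1111 CPM, where the groups overlapped and no call was made (limma p-adj = 0.122). Stat5a, which carries the GM-CSF signal, fell 2.22-fold, and Tgfbr2, the ligand-binding TGF-β receptor, fell 1.96-fold from 641 ± 39.4 to 327 ± 5.50 CPM. The feedback inhibitors Socs3 and Smad7 rose 7.51-fold and 4.56-fold. Pmepa1, a target of TGF-β, was at 4.92, 5.82 and 5.75 CPM against 31.3, 31.3, 34.4 and 37.3 CPM. It was also low in RXR-deficient mAMs, at 2.70, 15.4 and 2.24 CPM, and was not called between ImmAMs and RXR-deficient mAMs (log2 fold change 0.27, limma p-adj = 0.71).

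Sterol genes rose on the side of synthesis and split on the side of efflux. Of 24 genes of cholesterol synthesis and its control, 18 rose and none fell (median 0.56). Sc5d, a desaturase of the late steps, was at 57.1, 57.4 and 55.7 CPM against 23.9, 22.6, 21.2 and 19.0 CPM (2.63-fold higher), Msmo1, a methylsterol oxidase, rose 2.09-fold from 63.4 ± 10.9 to 131 ± 7.65 CPM, and Srebf2, the factor that controls the pathway, rose 1.49-fold. Against RXR-deficient mAMs the same list had 20 genes higher, none lower and a median of 0.94. Of 24 genes of cholesterol efflux and LXR targets, 11 rose and 8 fell (median 0.20). Apoe, the apolipoprotein that carries cholesterol out of macrophages, was at 1038, 1186 and 1005 CPM against 12.5, 18.1, 21.6 and 19.5 CPM (61.1-fold higher, limma p-adj = 7.99e-11), and Abca9, a lipid transporter, rose 36.1-fold. Abcg1, an efflux transporter, was at 816, 851 and 808 CPM against 2397, 2798, 2753 and 2696 CPM, and Pltp, a phospholipid transfer protein, fell 14-fold. In fatty acid synthesis, 6 of 19 genes rose and 6 fell, with the desaturases Scd1 and Scd2 3.69-fold and 3.62-fold higher and Elovl7, an elongase, at 21.9 ± 1.25 CPM against 0.106 ± 0.109 CPM.

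Uptake receptors changed in both directions. Of 37 lectins and scavenger receptors, 18 rose and 14 fell (median 0.11). Msr1, scavenger receptor A, was at 426, 366 and 434 CPM against 44.3, 30.5, 36.4 and 20.8 CPM (12.8-fold higher), and Colec12 and Stab1, further scavenger receptors, rose 13.2-fold and 61.4-fold. Siglec1, a sialic acid lectin, fell 7.14-fold, and Mrc1, the mannose receptor, fell 1.66-fold. All 13 Fc receptor genes and their signalling partners changed, 5 higher and 8 lower. Fcgr2b, the inhibitory Fcγ receptor, was at 1030.3, 1017 and 1041 CPM against 170.1, 146, 111 and 151 CPM, and the activating receptor Fcgr3 rose 2.70-fold, while Fcgr4 fell 4.78-fold and the recycling receptor Fcgrt fell 4.10-fold. In the uptake of apoptotic cells, 10 of 23 genes rose and 6 fell (43.5% and 26.1%, median 0.09), against 22.8% and 25.3% of all genes. Mfge8, a bridging protein, rose 10.6-fold from 8.05 ± 0.611 to 85.7 ± 8.99 CPM, and the receptor kinases Axl and Mertk fell 1.85-fold and 1.80-fold.

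Of 27 genes of lipid-associated macrophages of the TREM2 type, 13 rose and 8 fell (median 0.16). Trem2, a lipid receptor, was at 159, 166 and 159 CPM against 32.7, 37.3, 35.5 and 40.2 CPM, Hpse, heparanase, rose 98.5-fold and Cd63, a tetraspanin of late endosomes, rose 12.2-fold, whereas Lpl, Fabp4 and Plin2 of the same list fell. The lysosome list was balanced in its counts, 20 of 62 higher and 19 lower (median 0.07). Its summed level was higher in ImmAMs, at 52719 to 53604 CPM against 38545 to 42752 CPM in control mAMs. Members ranged from −1.11 to 3.94 on the log2 scale. Galns, a sulfatase, fell 2.16-fold, and Lipa, acid lipase, fell 1.40-fold. Of the iron genes 8 of 19 rose and 7 fell (median 0.08). Slc11a1, the phagosomal metal transporter, was at 117, 122 and 115 CPM against 11.9, 14.1, 12.3 and 13 CPM (9.22-fold higher), and Slc40a1, the iron exporter, rose 2.54-fold. Ncoa4, the receptor that delivers ferritin to lysosomes, fell 4.80-fold from 1251 ± 207 to 258 ± 8.84 CPM, and Hmox1, which degrades haem, fell 2.65-fold.

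Sensors of microbes rose more often than they fell, 13 against 5 of 26 (median 0.23). Tlr9, a sensor of bacterial DNA, rose 30.5-fold to 12.5 ± 2.04 CPM, and Cd14 and Ly96, partners of TLR4 in binding lipopolysaccharide, rose 3.79-fold and 2.30-fold. Tlr5, the flagellin receptor, fell 2.86-fold and the adaptor Myd88 fell 1.95-fold from 146 ± 4.62 to 75.1 ± 4.13 CPM. For presentation by MHC class II, 6 of 16 genes rose and 2 fell. The median of 0.30 ranged from 0.12 with Xist as a covariate to 0.45 with the replicate block. By library this median overlapped between the groups, with ImmAM replicate 2 at 0.123 and control mAM replicate 1 at 0.193 over the control mean. Of the 16 genes 8 were not called. The summed level of the list, which follows its most abundant members and need not reflect the others, did not overlap. It was 8309.8 to 8976 CPM in ImmAMs, 4153 to 4787 CPM in control mAMs and 4961 to 5418 CPM in RXR-deficient mAMs. Among these genes, the costimulatory ligand Cd86 was at 43.1, 41.9 and 41.3 CPM against 11, 7.42, 11.5 and 6.02 CPM. For MHC class I, 12 of 23 fell and 3 rose (median −0.32), with H2-K1 at 444, 486 and 456 CPM against 661, 673, 622 and 667 CPM. H2-K1 was at 459.8, 544 and 486 CPM in RXR-deficient mAMs and was not called between ImmAMs and them (limma p-adj = 0.31), and the class I list fell in 4 genes and rose in 5 in that comparison. Of 55 interferon-stimulated genes, 20 rose and 10 fell (median 0.19). The Schlafen genes Slfn5, Slfn1 and Slfn8, which restrain proliferation or viral growth, rose 15.4-fold, 9.15-fold and 5.04-fold, and Gbp2, a guanylate-binding protein, fell 1.80-fold from 37.6 ± 5.62 to 20.8 ± 1.45 CPM.

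In glycolysis and the pentose phosphate pathway, 12 of 34 genes rose and 14 fell (median −0.04). The glucose transporter Slc2a1 was at 62.4, 63.3 and 72.1 CPM against 15.4, 15.2, 12.6 and 14.2 CPM (4.61-fold higher), while Ldha, lactate dehydrogenase, fell 1.81-fold and Taldo1, transaldolase, fell 2.37-fold. S100 proteins and annexins rose in 7 and fell in 4 of 16 cases (median 0.13). S100a6, a calcium-binding protein, was at 219, 223 and 265 CPM against 1.70, 1.83, 1.52 and 1.74 CPM (138-fold higher), with 29.2, 13.9 and 48.1 CPM in RXR-deficient mAMs. S100a4 rose 54.4-fold (46.4% of its windows occur in another gene), and Anxa2, a membrane-binding annexin, fell 4.15-fold from 1669.8 ± 97.9 to 402 ± 8.82 CPM. Stress lists were mixed, with 23.5% to 40.0% of their genes higher and 31.2% to 42.9% lower, against 22.8% and 25.3% of all genes. Of the ATF4 response and serine synthesis, 10 of 25 genes rose and 8 fell, of NRF2 and glutathione genes 8 of 34 rose and 14 fell, of p53 targets 10 of 32 rose and 10 fell, and of apoptosis genes 12 of 42 rose and 18 fell, with medians between −0.12 and 0.06. Among these, Gpx1, a glutathione peroxidase, fell 2.17-fold, Slc7a11, the cystine transporter, rose 2.65-fold, Phlda3, an inhibitor of AKT, fell 6.86-fold, and Bid, a pro-apoptotic BCL2 protein, rose 2.64-fold.

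Some genes passed from near 0 to a clear level. Counting genes below 0.5 CPM in every library of one group and at 5 CPM or more in every library of the other, 39 were gained in ImmAMs and 8 lost (13 and 14 lost without ImmAM replicate 2 or 3). The gained genes included C1qa, C1qb, C1qc, Cmklr1, Rarb and Tnfsf9, a ligand of T cell costimulation, and also Camk2n1, an inhibitor of the kinase CaMKII, at 34.2, 37.9 and 35.4 CPM with 3 reads over the control libraries. Kcnn4, a calcium-activated potassium channel, and Lat2, an adaptor of immune receptors, stood at 28.0 ± 1.33 and 33.6 ± 0.735 CPM in ImmAMs and at 0.0988 ± 0.0485 and 0.117 ± 0.0450 CPM in control mAMs. All 39 were lower in each RXR-deficient mAM library than in each ImmAM library, and 14 were also below 0.5 CPM there. The lost genes included Plin1 and the mitotic kinase Pbk, and 3 of the 8 stood at 5 CPM or more in every RXR-deficient mAM library. The pseudogene Rpl10-ps1 had 0 reads in the ImmAM libraries and 38.7 to 223 CPM in controls, at least 2830.2-fold lower at a floor of 3 reads over the group, but all of its windows (100%) occur in another gene and limma-voom did not call it.

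The fit also set the ImmAMs against RXR-deficient mAMs, which differ by gate and not by genotype. Both comparisons contain the same ImmAM libraries, so their values are given side by side and are not independent. Limma called 4891 genes (37.9%) in this comparison, 2283 higher in ImmAMs (17.7%) and 2608 lower (20.2%). The identity list had 25 genes lower and 4 higher (median −0.88, against −0.95 over control mAMs), fatty acid oxidation 35 lower and 4 higher (−0.48 against −0.62), mitosis 82 lower (−3.26 against −3.26), DNA replication 46 lower and 1 higher (−0.89 against −1.06) and matrix genes 16 higher and 6 lower (1.57 against 0.93). Cytosolic ribosomal proteins had 77 of 78 genes higher (0.73 against 0.53). Other medians were smaller against RXR-deficient mAMs. The nuclear respiratory chain and the mitochondrial ribosome had medians of −0.09 and −0.16 against −0.22 and −0.29. The same held for complement, with 8 genes higher and 7 lower (0.30 against 0.73), for chemoattractant receptors (0.36 against 0.89), the mitochondrially encoded respiratory chain (0.43 against 0.80) and integrins (0.26 against 0.46).

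**Figure D5:**
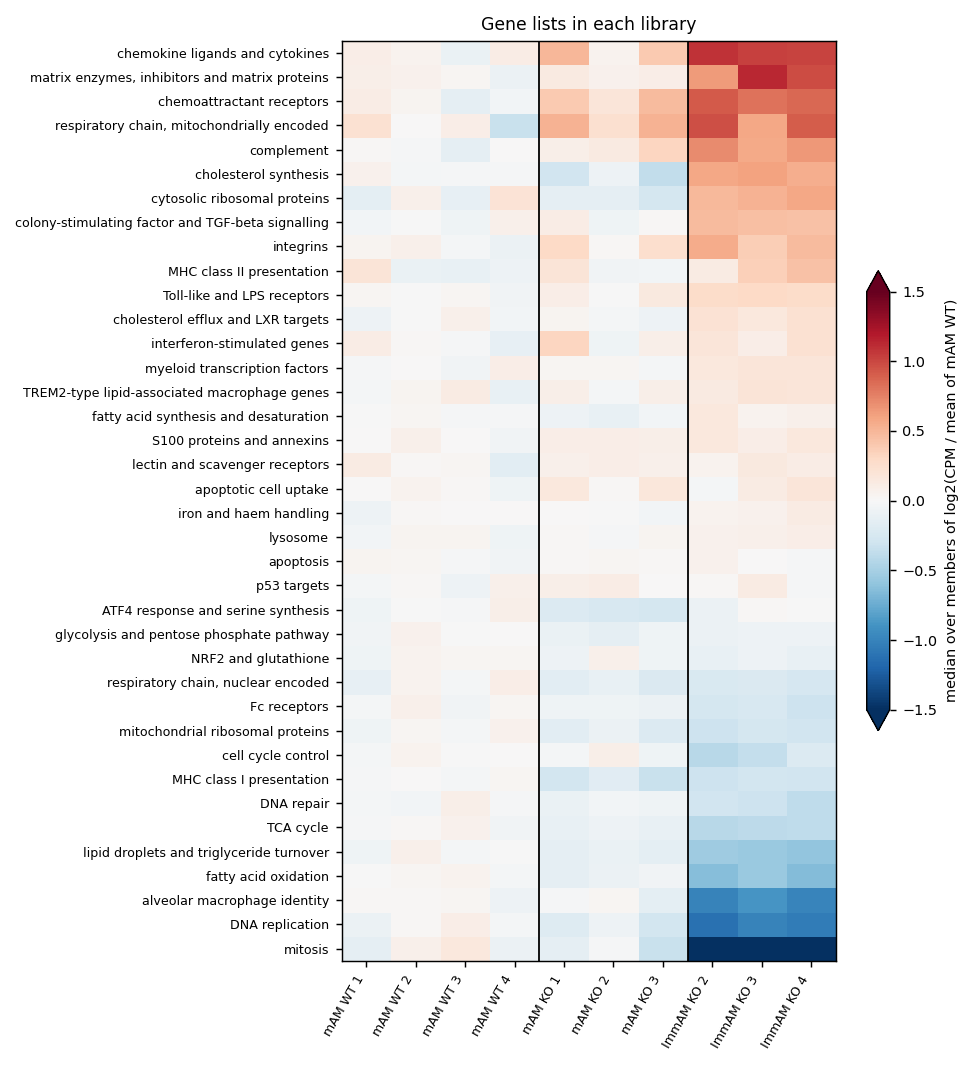
Median over the members of each of 38 gene lists of log2 CPM over the mean of the control mAMs, for each library (columns; colour scale cut at −1.5 and 1.5). The identity list is between −0.999 and −0.879 in the ImmAM libraries and between −0.079 and 0.031 in the control libraries, and RXR-deficient mAM libraries lie between −0.148 and 0.03.

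Markers of other cells were read in the same libraries. The authors had dropped genes that did not reach 1 CPM in 3 samples, so a gene left out of the deposited table had not reached that level. Summed over the 9 of 11 interstitial macrophage markers in the table, ImmAMs were at 796 to 841 CPM and control mAMs at 473 to 519 CPM, and over 8 of 10 monocyte markers at 289 to 299.6 CPM and 144 to 152 CPM. Gene by gene the shift was larger. Of the interstitial macrophage markers 6 rose and 1 fell. Their median log2 fold change was 6.97, and by library it lay between 6.882 and 7.03 in ImmAMs. C1qa, C1qb, C1qc and Cx3cr1, described above, are among them. Mertk, the marker that fell, was the most abundant of them in controls at 418 ± 15.3 CPM. Of the monocyte markers 5 rose and 2 fell (median 1.59). Of neutrophil markers 7 of 12 were in the table and 6 rose (median 1.63), with a sum of 904 to 977 CPM against 55.8 to 63.5 CPM. Most of that sum was Mmp8, a collagenase, at 887, 851 and 914 CPM against 27.7, 31.2, 21.5 and 22.6 CPM. The study names Mmp8 among the core genes of alveolar macrophages, so it is not a marker of neutrophils alone. S100a8, a granule protein, was at 15.8, 10.7 and 16.6 CPM, and the defining markers Ly6g, Camp, Mpo and Elane were not analysed here. Dendritic cell markers, 6 of 12, were at 30.6 to 31.9 CPM against 10.3 to 13.3 CPM, and 4 of the 5 tested rose (median 1.83). No T cell, NK cell, mast cell or fibroblast marker was among the genes tested, and B cell markers, 4 of 10, were at 304 to 320.1 CPM against 279 to 302 CPM. All 4 had a log2 fold change above 0 (median 2.29), and 1 was called. Alveolar type 2 markers, 2 of 8, were at 167 to 179 CPM against 163 to 174 CPM, and club or ciliated markers, 2 of 7, at 258 to 266 CPM against 109.6 to 176 CPM. The single endothelial marker was at 299.7 to 332 CPM against 118 to 145 CPM, and erythroid and platelet markers stayed below 10 CPM in every library. Of platelet markers, 2 of 6, 1 rose (median 3.01), with a sum of 3.64 to 4.41 CPM against 0.413 to 0.884 CPM. Eosinophil markers, 2 of 7, were Siglecf and Alox15, with a sum of 21.6 to 23.1 CPM against 244 to 264 CPM. Siglecf fell, with a log2 fold change of −3.71, and Alox15 rose, with 6.13. The defining eosinophil genes Epx, Prg2 and Ccr3 were not analysed here. Of 16 genes of dissociation stress, 5 rose and 2 fell, and their sum was 852 to 917 CPM against 757 to 955 CPM. The part of other cells in the results above was not tested.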

How the data were processed

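Alveolar macrophages were sorted at 40000 cells per library and their polyA RNA was sequenced as single-end reads of 60 bases, from a directional library kit. The study's methods state cells from bronchoalveolar lavage, whereas the series text states digested lung. The authors trimmed reads with Cutadapt (reads under 30 bases discarded), mapped them to the GRCm38 transcriptome (Ensembl release 99), estimated counts with RSEM (1.3.1 in the submitters' processing notes), applied TMM scaling in limma and dropped genes that did not reach 1 CPM in 3 samples. The strand setting of the counting is not given in the sources used here.

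All values in the deposited table are CPM. Within a library each is a whole number of reads plus 0.5, times a fixed step, and dividing by it left 100% of the values within 0.01 of a whole read. The authors' 0.5 read limits the fold of genes near 0.

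Log2 of these values, with no further pseudocount, was fitted in limma 3.58.1 (R 4.3.3; eBayes with a variance trend) with 1 mean per group over 10 libraries. RXR-deficient mAM replicate 4 was left out, as in the study. Two-sided tests were made of the 12889 genes that reached 1 CPM in 3 of these libraries, p-values were adjusted by Benjamini and Hochberg's method, and the threshold was a p-adj of 0.05. In the text a called or changed gene is one past it, and ± gives the SD. The series text calls the samples individual biological replicates. On the recovered reads edgeR 4.0.16 (quasi-likelihood test) called 6094 genes, DESeq2 1.42.0 called 6284 and limma-voom 6156, against 6194 in limma. The other alternatives were all 11 libraries, only the 2 groups, pseudocounts of 0.5 and 1 CPM, no filter or one of 5 CPM, median-ratio scaling, no TMM factor, quantile normalization, eBayes without a trend or robust, Xist as a covariate, replicate number as a block, a threshold of 0.01, a fold of at least 1.5 and each library left out in turn. In 1 set of simulated libraries, 67, 67 and 66 genes at a mean of 5 CPM or more were changed 1.5-fold, 2-fold and 4-fold, among 12635 genes. There limma called 59.7%, 94% and 100% of them, and 0.6% of its calls were unchanged genes. Far more genes were called in the data and many were nearer 0, so these rates do not carry over to the comparison itself.

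The members, the 38 gene lists and the marker lists, written from general knowledge, were chosen with earlier results of these data known. Genes were named by a rule: the targeted and gate genes, the 12 largest rises and 12 largest falls among called genes at 20 CPM or more in the higher group with no overlap, the 10 largest gains and losses in CPM, up to 4 called members of a list in each direction at 5 CPM or more with no overlap (and up to 4 against the list's median), the highest member of each list, and transcription factors among the genes that passed from below 0.5 to 5 CPM or more. The text gives a part of the genes so named, chosen with their values seen. Some genes are not reported here. Ccr2, Top2a, Cpt1a, Cenpf, Kif23, Mcm6, Mcm3, Pparg, Csf1r, Mmp8, Il1b, Xist, Ddx3y, Pttg1, Echs1 and Alox15 were named after their values were seen. Positions and shared 60-base windows were read from GENCODE vM21 (12927 genes found of 12932) and promoters from RefSeq. Intervals and floors cover counting error only.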

Additional observations from a re-analysis of the deposited data

Results flagged for a closer look

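The 4 control mAM libraries of each of 169 genes named above were checked for a single library far from the others by Dixon's test at 95%, which flags about 1 in 20 groups by chance. It marked 5 genes, 4 of them in replicate 3 and 1 in replicate 2. Over all 321 genes that were candidates for the text it marked 13, with 4 in each of replicates 1, 2 and 3 and 1 in replicate 4. In replicate 3, Srebf2 stood at 146 CPM with the other libraries at 169 to 172 CPM, Scd2 at 101 CPM against 68.6 to 71.2 CPM, Csf2rb at 922 CPM against 1099 to 1111 CPM and Stab1 at 0.0938 CPM against 0.516 to 0.623 CPM. In replicate 2, Bach2 stood at 2.51 CPM against 1.35 to 1.39 CPM. For all of these but Csf2rb the ImmAM libraries did not overlap the control libraries with the marked one included. Csf2rb was called lower in ImmAMs only without control mAM replicate 3.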

How the results depend on the processing

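The 6194 calls ranged from 5527 to 6319 over the fits with another filter, scaling, pseudocount, model or tool, and from 5205 (without ImmAM replicate 2) to 6311 with single libraries left out (higher 2424 to 3007, lower 2781 to 3304). A threshold of 0.01 left 4502. A fold of at least 1.5 left 3438, 1824 higher and 1614 lower, so more genes rose than fell, as also in limma-voom with 3153 and 3003. Against RXR-deficient mAMs the counts with single libraries left out were 4105 to 5282. Alternatives for that comparison, and the removal of single libraries in the permutation test, were chosen after seeing the data. Scalings moved the median of all genes by at most 0.018 on the log2 scale, and of 314 named genes called, 292 passed in every alternative fit and none reversed. Of the 38 list medians, 33 kept their sign in every fit.

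Quantile normalization moved list medians to −0.84 (identity), −1.15 (DNA replication), −3.57 (mitosis), −0.34 (TCA cycle), 0.62 (cholesterol synthesis) and 0.64 (complement). A pseudocount of 0.5 CPM gave −2.65 for mitosis, 0.60 for complement and 0.68 for matrix genes, and one of 1 CPM gave −2.29, 0.52 and 0.68, with −0.96 for DNA replication. A filter of 5 CPM gave 0.21 for complement. Matrix genes were at 0.66 with Xist as a covariate and at 0.69 in edgeR and DESeq2. With single libraries left out, medians ranged from −1.01 to −0.92 (identity), −3.50 to −3.16 (mitosis), −0.44 to −0.36 (TCA cycle), 0.79 to 0.94 (chemoattractant receptors) and 0.61 to 1.08 (matrix). The median of fatty acid synthesis ranged from −0.02 (without control mAM replicate 3) to 0.15, and that of apoptosis from −0.04 (without control mAM replicate 4) to 0.07. Rxrb differed by −0.89 to −0.73 with single libraries left out, where the exact permutation p was 0.0667 or 0.1, the smallest those sizes allow. Genes gained from near 0 were 64 with limits of 1 and 5 CPM and 22 with 0.5 and 10 CPM (39 to 42 with single libraries left out), and genes lost 36 and 3 (8 to 14). In only the 250 bases before the start, the CHR was in 37.0% of mitosis promoters and 11.1% of all, E2F letters in 24.6% of replication promoters and 6.91% of all, and the CCAAT box in 35.9% of all. Over the fits the medians of lists near 0 moved by over 1.5 times, among them MHC class II (0.12 to 0.45), Fc receptors (−0.38 to −0.16), apoptotic cell uptake (0.04 to 0.22), lectins and scavenger receptors (0.06 to 0.22) and interferon-stimulated genes (0.09 to 0.22). The cause of these shifts was not tested.

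Replicate numbers are shared by the groups, and the sources used here do not say that they mark the same mouse, litter or day. The deviations of same-numbered ImmAM and control libraries correlated at −0.00977, −0.129 and −0.0986, and no ImmAM library correlated best with the control of its number. For ImmAMs and RXR-deficient mAMs, numbers 2 and 3 are shared, with correlations of 0.0590 and −0.0333. With the replicate number as a block 5686 genes were called, 2696 higher and 2990 lower, and 3894 between ImmAMs and RXR-deficient mAMs. Depth limits genes near 0. Of genes with a mean below 2 CPM 29.8% were called, and of those at 200 CPM or more 72.1%.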

Other observations

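Gene classes of the GENCODE annotation differed in their counts of genes that rose and fell. Of 11334 protein-coding genes tested, 2636 were higher in RXR-deficient ImmAMs than in control mAMs and 3131 lower. Of 326 genes of the class TEC, which the annotation holds for further experimental testing, 74 were higher and 10 lower. The counts were 42 and 18 of 261 antisense genes, 14 and 1 of 36 sense intronic genes, 42 and 11 of 163 processed transcripts, 57 and 36 of 275 lincRNAs, and 25 and 30 of 292 processed pseudogenes. The strand setting of the counting is not given in the sources used here, so reads of antisense and intronic classes and of the genes they overlap may not be separable. The difference between the classes was not tested. Among genes with a mean below 2 CPM over the 10 libraries of the fit, of any class, 330 were higher and 148 lower. That mean holds fewer ImmAM than mAM libraries.

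Of the genes tested, 26 had 0 reads in every library of one group. Of these, 2 were on a gene list, and setting them to a floor of 3 reads moved no list median.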
